A study of Mus musculus with 2 samples.

Results

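Antigen presentation by major histocompatibility complex (MHC) class I is described here through 10 genes of 14886 protein-coding genes counted by ribosome profiling in mouse lung fibroblasts. The genes were picked by name for their roles, by a rule that uses no value, although earlier results of these data were known when the set was drawn up. They are the light and heavy chains B2m, H2-K1 and H2-D1, the peptide transport and loading genes Tap1, Tap2 and Tapbp, the immunoproteasome subunits Psmb8, Psmb9 and Psmb10, and the invariant chain Cd74. All 10 were found in the table, 1 row each. In ribosome profiling, mRNA is digested except where a ribosome covers it and the covered pieces are sequenced, so a count reflects the amount of an mRNA and the ribosomes on it together. The study concerns rosmarinic acid in lung fibrosis after radiation, and it used ribosome profiling to look for target mRNAs. There were 2 groups of 1 library each, labelled IR and NC. Both came from mouse lung fibroblasts treated with cycloheximide before lysis. The labels spell out neither abbreviation and give no strain, genotype, dose, time or age. They also do not say whether these fibroblasts had been exposed to radiation directly.

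In the class I pathway, the proteasome cuts cytosolic proteins into peptides, the TAP transporter carries them into the endoplasmic reticulum, and a loading complex places them on a heavy chain paired with beta-2-microglobulin. The peptide-loaded complex then travels to the cell surface, where T cells read it. Interferon raises most genes of this pathway in many cell types and replaces the constitutive catalytic proteasome subunits with the immunoproteasome ones. The invariant chain belongs to the class II pathway, in which it occupies the groove of class II molecules, and it is also a receptor subunit for macrophage migration inhibitory factor.

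Counts summed to 888835 in IR and 695446 in NC, with a median of 12 counts per gene in each. Folds below are IR over NC after TMM scaling, which compares the libraries through the bulk of genes that differ little. The 95% interval beside a fold is the exact (Clopper-Pearson) one of the share of a gene's counts that fell in IR, and it covers counting error only. There are no replicates, so no test between the conditions was possible and no p-value is given. A gene is called higher or lower beyond counting error where this interval leaves out 1. Scaling by total counts lowers all log2 ratios by 0.34, that is, it multiplies each fold by 0.792. Counts of different genes were not compared as levels, since coding lengths were not used here. All 10 fibroblast markers examined were counted in both libraries, with 9855 counts in IR against 8384 in NC over all of them. They went both ways beyond counting error, with 5 higher in IR and 2, Col3a1 and Pdgfra, lower. Of all genes that averaged 20 or more counts, 23.5% were higher and 23.7% lower. PCR copies of footprints cannot be recognised, and gene counts alone do not show that every read is a footprint.

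The class I chains, the peptide transporter, tapasin and the invariant chain gave more footprints in the IR library, while Psmb8, a subunit of the immunoproteasome, gave fewer. Of the 10 genes, 8 averaged 20 or more counts over the libraries, the minimum set for counting calls. Among these 8, 7 were higher in IR beyond counting error and 1 was lower, where 23.5% of the 5989 genes above the same minimum were higher and 23.7% lower. Psmb9 and Psmb10 fell below the minimum. Among the 1332 genes that averaged 100 or more counts, 38.2% were higher and 25.8% lower. A fold of at least 2 was reached upward by 2 of the 8, H2-D1 and Tapbp, against 11.8% of genes above the minimum of 20 and 12.5% of those above 100. None of the 8 was at least 2-fold lower, against 11.9% and 4.58% of genes. The median log2 ratio of the 8 genes was 0.53 (range -0.61 to 1.17), and that of all 5989 genes was -0.02. Scaling by total counts gave a median of 0.19 for the 8 genes, with 4 higher and 1 lower beyond counting error. The shares of all genes given above hold for TMM scaling and were not counted under total-count scaling. The 4 and 1 therefore cannot be set against them. Together the 10 genes took 0.598% of all counts in IR (exact binomial 95% interval 0.582% to 0.614%) and 0.496% in NC (0.480% to 0.513%), a comparison free of TMM scaling.

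**Figure D1:**
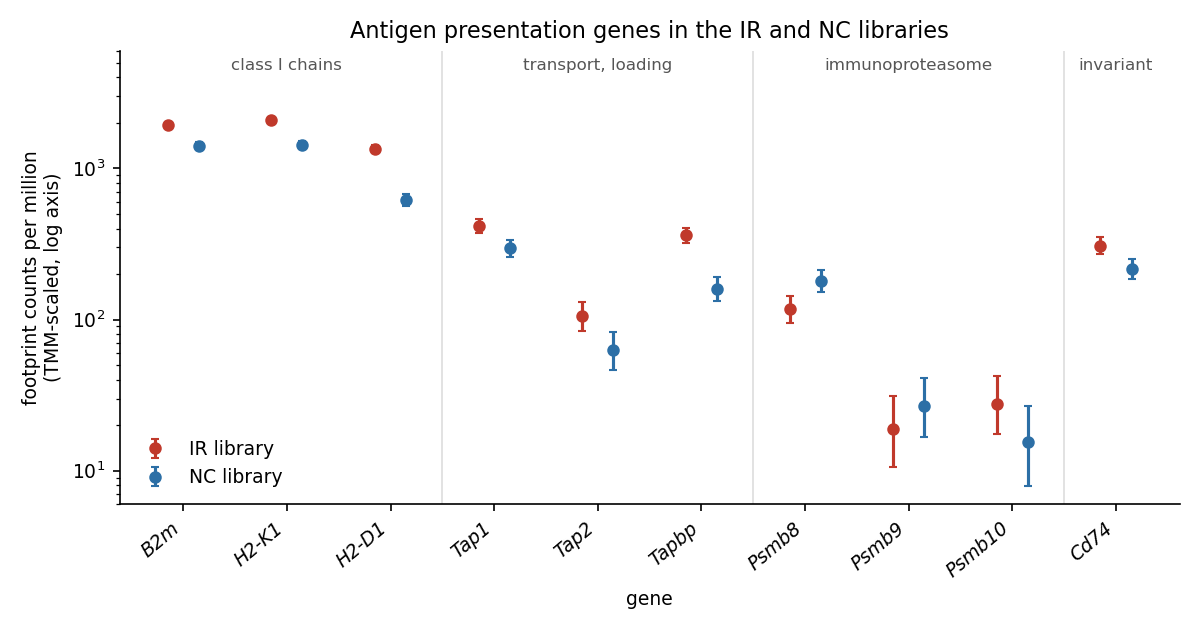
TMM-scaled footprint CPM on a log axis of the 10 genes in the IR library (red, left of each pair) and the NC library (blue). Bars are exact Poisson 95% intervals of the count, and heights of different genes are not comparable because gene lengths differ. IR lies above NC for 8 genes and below it for Psmb8 and Psmb9.

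B2m encodes beta-2-microglobulin, the light chain that every class I molecule needs to fold and reach the surface. It lies on chromosome 2 at 122147686 to 122153083 (mm10, plus strand). B2m had 1529 counts in IR against 1098 in NC, giving a fold of 1.38 (1.27 to 1.49). H2-K1 encodes the K heavy chain, which holds the peptide groove, and lies on chromosome 17 at 33996017 to 34000333 (minus strand). H2-K1 had 1648 counts in IR against 1119 in NC, giving a fold of 1.45 (1.35 to 1.57). B2m and H2-K1 thus differed by closely similar folds, whose intervals overlap. H2-D1 encodes the D heavy chain and lies on chromosome 17 at 35262730 to 35267499 (plus strand). H2-D1 had 1068 counts in IR against 486 in NC, giving a fold of 2.17 (1.95 to 2.42). The difference was larger for the D chain than for the other chains, and its interval does not meet theirs. Under total-count scaling all 3 chains were still higher beyond counting error, at 1.09-fold (1.01 to 1.18) for B2m, 1.15-fold (1.07 to 1.24) for H2-K1 and 1.72-fold (1.54 to 1.92) for H2-D1.

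Abundant genes as a class were shifted upward in the IR library, which bears on how the class I chains are read. Among the 91 genes whose mean count lay within 2-fold of that of B2m, the median log2 ratio was 0.55 (middle 50% from 0.03 to 1.23) and 69.2% were higher beyond counting error. B2m, at 0.46, lay below that median. H2-K1, at 0.54, lay at the median of its own 89 genes of like count, 0.56. Neither chain stood above the median of genes counted as deeply. H2-D1, at 1.12, lay above the middle 50% of its 183 genes of like count, which ran from -0.09 to 0.90 with a median of 0.35.

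The regulatory sequence before the class I genes is shown because all 3 chains were higher together and because the heavy chains share much of it. RefSeq's table for GRCm38.p6 holds promoter entries for 8 of the 10 genes, all except Tap2 and Cd74. The windows are the 250 bases before the start that RefSeq annotates, at chr2:122147437-122147686 (plus strand) for B2m, chr17:34000348-34000597 (minus strand) for H2-K1 and chr17:35262844-35263093 (plus strand) for H2-D1. The RefSeq start of H2-D1 lies downstream of the start in the deposited coordinates, so its window falls inside the gene as given above. The windows are printed 5′ to 3′. Capitals mark matches, on either strand, to the interferon response element forms GAAANNGAA and GAANNGAAA or to the NF-kB consensus.
B2m: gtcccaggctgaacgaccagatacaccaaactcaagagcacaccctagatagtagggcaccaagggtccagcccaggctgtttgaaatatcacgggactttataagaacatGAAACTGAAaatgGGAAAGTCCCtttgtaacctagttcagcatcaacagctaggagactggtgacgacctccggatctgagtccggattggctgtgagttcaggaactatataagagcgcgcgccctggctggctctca
H2-K1: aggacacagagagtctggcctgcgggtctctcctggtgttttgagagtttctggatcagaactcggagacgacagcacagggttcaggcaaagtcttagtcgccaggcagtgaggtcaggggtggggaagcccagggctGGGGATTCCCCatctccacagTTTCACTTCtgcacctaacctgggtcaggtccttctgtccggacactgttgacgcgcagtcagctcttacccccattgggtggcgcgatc
H2-D1: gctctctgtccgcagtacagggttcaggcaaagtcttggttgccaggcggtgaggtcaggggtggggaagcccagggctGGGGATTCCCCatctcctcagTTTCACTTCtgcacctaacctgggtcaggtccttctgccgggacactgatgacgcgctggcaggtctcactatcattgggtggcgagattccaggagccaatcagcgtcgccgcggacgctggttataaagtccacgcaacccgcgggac
B2m holds GAAANNGAA 131 to 139 bases before its start, and 7.13% of the 32851 windows of this length in the table hold that motif. H2-K1 and H2-D1 hold GAANNGAAA on the reverse strand, as do 6.31% of windows. All 3 also match the NF-kB consensus, which 7.25% of windows do, and in the heavy chains the palindromic match counts on both strands at overlapping positions. The NF-kB and interferon matches lie next to each other in all 3 windows. The H2-K1 and H2-D1 windows aligned at 190 positions, with 120 gap bases left unaligned, and were identical at 170 of the aligned positions (89.5%). H2-D1 had a larger fold than H2-K1, and whether these sequences have a part in the folds was not tested. The first of the 2 start sites given for H2-K1 was used. The motifs were chosen after the windows had been read, and a match describes letters, not binding.

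Class I heavy chains form a family of near-identical copies, and how the authors handled reads that match several copies is not given in the sources used here. H2-K1 and H2-D1 are therefore less certain than B2m, which is a single gene. Among the other class I genes, 7 reached the minimum of 20. Of these 7, 2 lay above and 1 below NC beyond counting error, and the median log2 ratio was 0.44. H2-Q4 had 113 counts in IR against 74 in NC, giving a fold of 1.51 (1.12 to 2.05). H2-T23, the Qa-1 chain that is recognised by natural killer cell receptors, had 74 counts in IR against 51 in NC, giving a fold of 1.43 (0.990 to 2.09). H2-Q7 ran the other way, with 555 counts in IR against 878 in NC, 1.60-fold lower (1.44 to 1.78). Its close copy H2-Q6 had 406 counts in IR against 296 in NC, and was the other gene called higher. Reads of this pair may have been split between them, and summed they gave 961 counts in IR against 1174 in NC, giving a fold of 0.809 (0.742 to 0.881). Fcgrt, the neonatal Fc receptor chain that also pairs with beta-2-microglobulin, had 123 counts in IR against 107 in NC. Summed over H2-K1, H2-D1 and 5 H2-Q genes, heavy chains had 3803 counts in IR against 2875 in NC, giving a fold of 1.31 (1.24 to 1.37). With total-count scaling that summed fold was 1.03 (0.986 to 1.09), which no longer left out 1.

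Tap1 and Tap2 encode the paired chains of the TAP transporter, and both were higher in the IR library. Tap1 lies on chromosome 17 at 34187553 to 34197225 (plus strand). Tap1 had 329 counts in IR against 231 in NC, giving a fold of 1.41 (1.19 to 1.67). Tap2 lies close by at 34203527 to 34216321 (plus strand) and had 83 counts in IR against 49 in NC, giving a fold of 1.67 (1.16 to 2.43). The transporter needs both chains, and the count ratio of Tap1 over Tap2 was 3.96 in IR and 4.71 in NC. Between the libraries that ratio differed by a factor of 0.841 (exact interval 0.556 to 1.26), so no unequal change of the subunits was detectable at this depth. Under total-count scaling neither gene was higher beyond counting error, at 1.11-fold (0.939 to 1.32) for Tap1 and 1.33-fold (0.920 to 1.93) for Tap2.

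Tapbp encodes tapasin, the bridge between the transporter and an empty class I chain. Of all 10 genes it had the highest fold. Tapbp, on chromosome 17 at 33915899 to 33929288 (plus strand), had 286 counts in IR against 125 in NC, giving a fold of 2.26 (1.83 to 2.81), or 1.79 (1.45 to 2.23) by total counts. Its log2 ratio of 1.17 lay above the middle 50% of 1074 genes of like count, from -0.34 to 0.49. For Tap1 (0.49) that middle 50% ran from -0.32 to 0.54 and for Tap2 (0.73) from -0.53 to 0.47. The coordinates of 3 genes of the peptide transport group overlap another listed gene. Tapbp shares 3421 bases with Zbtb22 on the same strand, so that no strand setting could separate reads there, and Zbtb22 had 16 counts in IR against 6 in NC. Tap2 shares 3148 bases with Gm15821 on the other strand, which had 2 counts in IR against 0 in NC. Tap1 shares 212 bases with Psmb9, also on the other strand. Whether the counting used strand is not known for either overlap.

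**Figure D2:**
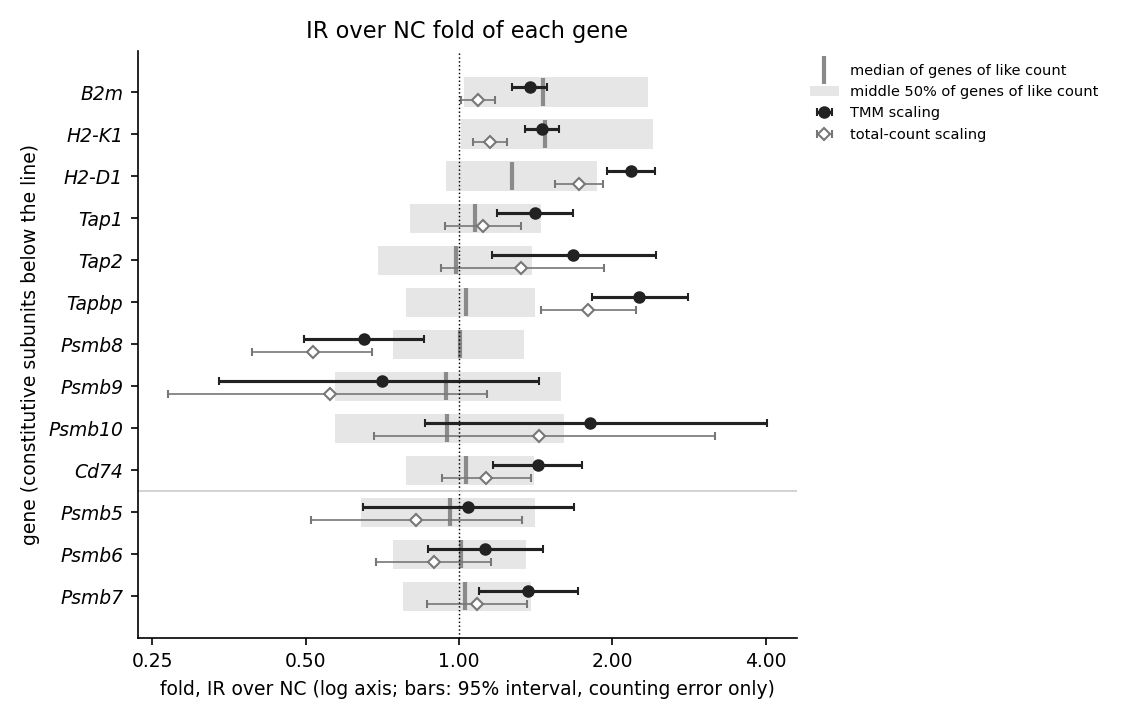
Fold of IR over NC on a log axis for the 10 genes and, below the line, the 3 constitutive proteasome subunits, with TMM scaling (filled circles) and total-count scaling (open diamonds). Horizontal bars are 95% intervals for counting error, grey bands the middle 50% and grey ticks the median of genes whose mean count is within 2-fold. With TMM scaling, H2-D1, Tapbp, Tap2, Psmb10 and, narrowly, Cd74 lie above their bands and Psmb8 below its own. The interval of Psmb10 holds 1. B2m, H2-K1, Tap1 and Psmb9 lie inside their bands.

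Of the 3 immunoproteasome subunits, Psmb8 was lower in IR beyond counting error, and Psmb9 and Psmb10 were not distinguishable. These catalytic subunits replace constitutive ones in newly built proteasomes and shift cleavage toward peptide ends that class I molecules hold well. Psmb8 encodes LMP7, which takes the place of Psmb5 and has chymotrypsin-like activity. Psmb8, on chromosome 17 at 34197721 to 34201454 (plus strand), had 93 counts in IR against 141 in NC, 1.53-fold lower (1.17 to 2.02). It was the only gene of the 10 that was lower beyond counting error, and by total counts it was lower still, at a fold of 0.516 (0.393 to 0.675). Psmb8 had a log2 ratio of -0.61, below the middle 50% of its 1933 genes of like count, from -0.43 to 0.42. Psmb9 encodes LMP2, which replaces Psmb6. Psmb9, at 34181988 to 34187764 (minus strand), had 15 counts in IR against 21 in NC, giving a fold of 0.706 (0.338 to 1.44). Psmb10 encodes MECL-1, which replaces Psmb7. Psmb10, on chromosome 8 at 105935728 to 105938392 (minus strand), had 22 counts in IR against 12 in NC, giving a fold of 1.81 (0.858 to 4.02). At so few counts neither direction was distinguishable from counting error for Psmb9 or Psmb10. The 3 subunits summed to 130 counts in IR against 174 in NC, giving a fold of 0.738 (0.583 to 0.932), and 93 of the IR counts and 141 of the NC counts were from Psmb8.

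The constitutive partners were set beside them. Psmb5 had 39 counts in IR against 37 in NC, giving a fold of 1.04 (0.647 to 1.68). Psmb6 had 130 counts in IR against 114 in NC, giving a fold of 1.13 (0.869 to 1.46). Psmb7 had 191 counts in IR against 138 in NC, giving a fold of 1.37 (1.09 to 1.71). By total counts the folds of Psmb5 and Psmb6 turned to 0.825 and 0.892, with intervals that hold 1, and that of Psmb7 was 1.08. Ratios within a library avoid this dependence on scaling. Psmb8 over Psmb5 was 2.38 in IR and 3.81 in NC, a change by a factor of 0.626 (exact interval 0.360 to 1.09). Psmb9 over Psmb6 was 0.115 in IR and 0.184 in NC, a factor of 0.626 (0.286 to 1.35). Psmb10 over Psmb7 was 0.115 in IR and 0.0870 in NC, a factor of 1.32 (0.603 to 3.04). None of these 3 pairs differed beyond counting error. The sum of the 3 immunoproteasome subunits over the sum of their 3 partners was 0.361 in IR and 0.602 in NC, a factor of 0.600 (0.451 to 0.797). That summed difference rested on Psmb8 and Psmb5: without them the factor was 0.880 (0.519 to 1.50). It also depended on the partners chosen, since against the alpha subunits of the same proteasome core the factor was 0.866 (0.665 to 1.13).

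Tap1 and Psmb9 are transcribed away from each other, and RefSeq places their starts 226 bases apart. The stretch between these starts is shown because Tap1 was higher in IR beyond counting error and Psmb9 was not distinguishable. In the deposited coordinates Psmb9 extends past its RefSeq start into Tap1, so the window printed lies within Psmb9 as the table gives it. The window is chr17:34187306-34187555 (GRCm38.p6, plus strand), the 250 bases before the RefSeq start of Tap1, and 225 of these bases also lie in the Psmb9 window.
Tap1: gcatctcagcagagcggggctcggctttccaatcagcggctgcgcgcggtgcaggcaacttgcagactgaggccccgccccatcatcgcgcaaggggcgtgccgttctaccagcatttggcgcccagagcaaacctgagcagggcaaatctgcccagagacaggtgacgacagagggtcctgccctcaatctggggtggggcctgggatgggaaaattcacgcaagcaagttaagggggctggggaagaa
None of the 4 motifs searched, the 3 above and the interferon-gamma activated site TTCNNNGAA, matched this window, and so it has no capitals. The Psmb8 window held TTCNNNGAA 89 to 97 bases before the start, as did 7.02% of windows. The window of the constitutive Psmb6 held GAANNGAAA on the reverse strand, 62 to 70 bases before the start, as did 6.31% of windows. The windows of Tapbp, Psmb9, Psmb10 and Psmb5 held no match. Psmb9 over Tap1 was 0.0456 in IR and 0.0909 in NC, a factor of 0.502 (0.235 to 1.05). Psmb8, the next gene along after Tap1, over Tap1 was 0.283 in IR and 0.610 in NC, a factor of 0.463 (0.335 to 0.640).

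Cd74 encodes the invariant chain, a marker of antigen-presenting cells that other cells also make under interferon. Cd74 had 244 counts in IR against 169 in NC, giving a fold of 1.43 (1.17 to 1.75), or 1.13 (0.925 to 1.38) by total counts. It lies on chromosome 18 at 60803848 to 60812646 (plus strand). Its log2 ratio of 0.51 lay just above the middle 50% of 1070 genes of like count, from -0.34 to 0.49. The class II chains that the invariant chain serves were sparse. H2-Ab1 had 9 counts in IR against 6 in NC, and H2-Eb1 had 3 and 0. Their master regulator Ciita had 5 counts in IR against 3 in NC.

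Because leukocytes and endothelial cells express class I genes strongly, and many leukocytes Cd74, markers of other lung cells were examined. Of 20 macrophage and leukocyte markers 11 were analysed, since markers were matched by symbol only. Adgre1, listed under its older symbol Emr1 with 1 count in each library, was left out in this way. The 11 markers had 242 counts in IR against 165 in NC. Most of these counts were from Cd3e, a T cell receptor subunit, with 178 counts in IR against 157 in NC. The other 10 had 64 counts in IR against 8 in NC, giving a fold of 7.90 (3.78 to 19.1), and without Cd14 they had 37 against 8, a fold of 4.57 (2.09 to 11.4). Of the 11 markers, 8 had counts in IR against 0 in NC and 1 the reverse. Over all 14886 genes, 12.6% had counts in IR alone and 10.6% in NC alone. Cd14, a monocyte receptor for endotoxin that fibroblasts can also make, had 27 counts in IR against 0 in NC. Ptprc, the common leukocyte antigen, had 8 counts in IR against 0 in NC, and Lyz2, macrophage lysozyme, had 4 and 0. Of 6 dendritic cell markers 3 were analysed, and there the order was the other way, with 9 counts in IR against 23 in NC. All 6 endothelial markers were in the table and summed to 6933 counts in IR against 2657 in NC, giving a fold of 2.58 (2.46 to 2.70). Emcn, which encodes the endothelial sialomucin endomucin, held most of these, with 6842 counts in IR against 2618 in NC. The other 5 endothelial markers had 91 counts in IR against 39 in NC, giving a fold of 2.31 (1.57 to 3.45). Of these, Vwf, von Willebrand factor, had 37 counts in IR against 15 in NC, Pecam1 had 8 and 2, and Cdh5, the endothelial cadherin, had 1 and 0. Of 8 epithelial markers only 3 were analysed, with 13 counts in IR against 2 in NC, giving a fold of 6.42 (1.45 to 58.6). Krt8 had 9 counts in IR against 1 in NC, Ager had 4 and 0, and Epcam had 0 and 1. The part of these cell types in the folds of Cd74 and the class I genes was not tested.

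Ratios to B2m within each library put the genes on a scale that no library factor can move. This family of 9 ratios, like 5 others between pairs of the genes, was chosen after the counts were seen, and its intervals are not adjusted for their number. For H2-K1, Tap1, Tap2 and Cd74 the ratio to B2m differed between IR and NC by factors of 1.06 (0.947 to 1.18), 1.02 (0.847 to 1.24), 1.22 (0.837 to 1.78) and 1.04 (0.835 to 1.29), in that order. The intervals of all 4 hold 1, which limits any unequal change but does not show that these genes moved alike. H2-D1 over B2m was 0.698 in IR and 0.443 in NC, a factor of 1.58 (1.38 to 1.81). Tapbp over B2m was 0.187 in IR and 0.114 in NC, a factor of 1.64 (1.31 to 2.07). Psmb8 over B2m was 0.0608 in IR and 0.128 in NC, a factor of 0.474 (0.356 to 0.627). These 3 were the ratios to B2m whose intervals left out 1. H2-D1 and Tapbp therefore gained on the light chain in the IR library and Psmb8 lost on it, whichever scaling is used. The factor for H2-D1 over H2-K1 was 1.49 (1.31 to 1.71), from 0.648 in IR and 0.434 in NC, and the factor for Tapbp over Tap1 was 1.61 (1.22 to 2.12).

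**Figure D3:**
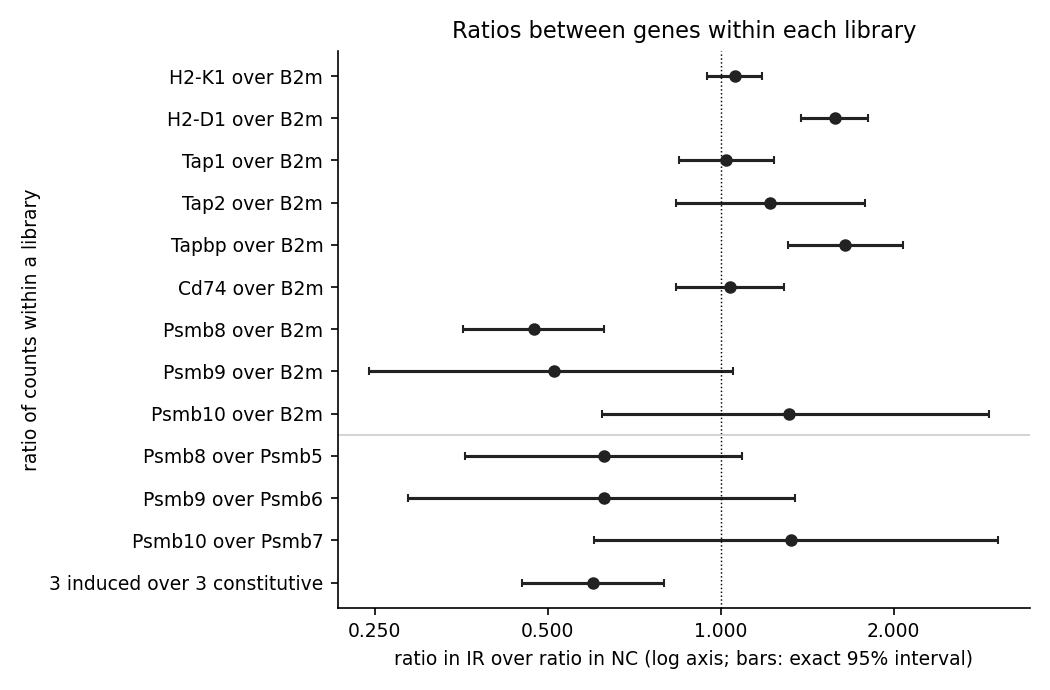
Change between the libraries (IR over NC, log axis) of count ratios taken within each library, first to B2m and, below the line, of immunoproteasome subunits to their constitutive partners. Bars are exact 95% intervals for counting error. H2-D1 and Tapbp lie above 1 relative to B2m, Psmb8 lies below it, and no single subunit pair leaves out 1.

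Of 13 other genes of peptide loading and trimming that reached the minimum, 3 lay above and 1 below NC beyond counting error, where 23.5% of all genes above the minimum were higher and 23.7% lower. The median of their log2 ratios was 0.000978. The same shares of all genes are the background of each list below. Erap1, the endoplasmic reticulum aminopeptidase that trims peptides to class I length, had 145 counts in IR against 52 in NC, giving a fold of 2.75 (1.99 to 3.86). Uggt1, which marks misfolded glycoproteins for another folding cycle and edits peptide loading, had 655 counts in IR against 429 in NC, giving a fold of 1.51 (1.33 to 1.71). Nrd1, the protease nardilysin, had 249 counts in IR against 378 in NC, 1.54-fold lower (1.31 to 1.81). Npepps, the puromycin-sensitive cytosolic aminopeptidase, had 54 counts in IR against 64 in NC. Hspa5, the abundant chaperone BiP, had 2275 counts in IR against 2246 in NC, giving a fold of 1.001 (0.944 to 1.06).

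Of 10 other subunits of the proteasome core, 3 lay above and 2 below NC beyond counting error, around a median log2 ratio of 0.02. Psmb3 had 39 counts in IR against 19 in NC, and Psma1 had 106 and 75. Psma7 had 33 counts in IR against 76 in NC, 2.33-fold lower (1.53 to 3.62), and Psma3 had 216 and 281. Psmb2 had 602 counts in IR against 568 in NC. Among 6 activators and assembly factors 2 lay above NC and 0 below, around a median of 0.60. Psme4, the PA200 activator, had 1057 counts in IR against 454 in NC, giving a fold of 2.30 (2.06 to 2.57). Psmg4, an assembly chaperone, had 37 counts in IR against 3 in NC, giving a fold of 12.2 (3.86 to 61.8). It reached the minimum only through its IR count. Below the minimum, Psmg2 had 8 counts in IR against 24 in NC, a fold of 0.329 (0.128 to 0.758), and Psmg1 had 10 and 21. With no minimum count the list median was 0.21. The interferon-induced activator subunits had fewer counts in IR without leaving counting error. Psme1 had 126 counts in IR against 144 in NC, giving a fold of 0.864 (0.675 to 1.11), and Psme2 had 26 and 36, a fold of 0.714 (0.414 to 1.21).

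Of 13 interferon signalling genes and class I regulators, 4 lay above and 2 below NC beyond counting error, beside 23.5% and 23.7% of all genes, around a median log2 ratio of -0.02. Jak2, the kinase bound to the interferon-gamma receptor, had 51 counts in IR against 29 in NC, giving a fold of 1.74 (1.08 to 2.84). Irf1, a transcription factor that binds interferon response elements, had 67 counts in IR against 39 in NC, giving a fold of 1.70 (1.13 to 2.59). Stat2, part of the type I interferon signalling complex, had 240 counts in IR against 186 in NC, giving a fold of 1.27 (1.05 to 1.55). Nlrc5, the transactivator of class I genes, was lower, with 18 counts in IR against 40 in NC, 2.25-fold (1.26 to 4.17). Rela, an NF-kB subunit, had 78 counts in IR against 111 in NC, 1.44-fold lower (1.07 to 1.95). By total counts the median of this list was -0.34, and those of the 20S subunits (-0.31) and of peptide loading (-0.34) lay near the shift of all genes.

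Of 6 class II pathway genes above the minimum, 3 lysosomal proteases were higher and 0 genes lower, with a median log2 ratio of 0.57. All 3 were deeply counted, and among the 183 genes within 2-fold of the mean count of H2-D1, a range that holds theirs, 59.6% were higher. Lgmn, asparagine endopeptidase, had 669 counts in IR against 395 in NC, giving a fold of 1.67 (1.48 to 1.90). Ctsb, cathepsin B, had 1063 counts in IR against 691 in NC, and Ctsl, cathepsin L, which trims the invariant chain in some cells, had 1380 and 903. Both cathepsins had folds of 1.52 (1.38 to 1.67) and 1.51 (1.39 to 1.64), in that order. Ifi30, the thiol reductase of antigen processing, had 40 counts in IR against 45 in NC, and Rfx5, a class II promoter factor, had 29 and 21. Among CD74 partners and processing enzymes, 3 of 3 above the minimum were higher, and Mif itself, with 11 counts in IR against 6 in NC, was below it. Cd44, which signals together with surface CD74, had 330 counts in IR against 198 in NC, giving a fold of 1.65 (1.38 to 1.97). Ddt, a relative of the CD74 ligand MIF, had 71 counts in IR against 28 in NC, giving a fold of 2.51 (1.60 to 4.03). Sppl2a, the protease that cleaves the CD74 fragment left in the membrane, had 121 counts in IR against 90 in NC, giving a fold of 1.33 (1.003 to 1.76).

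**Figure D4:**
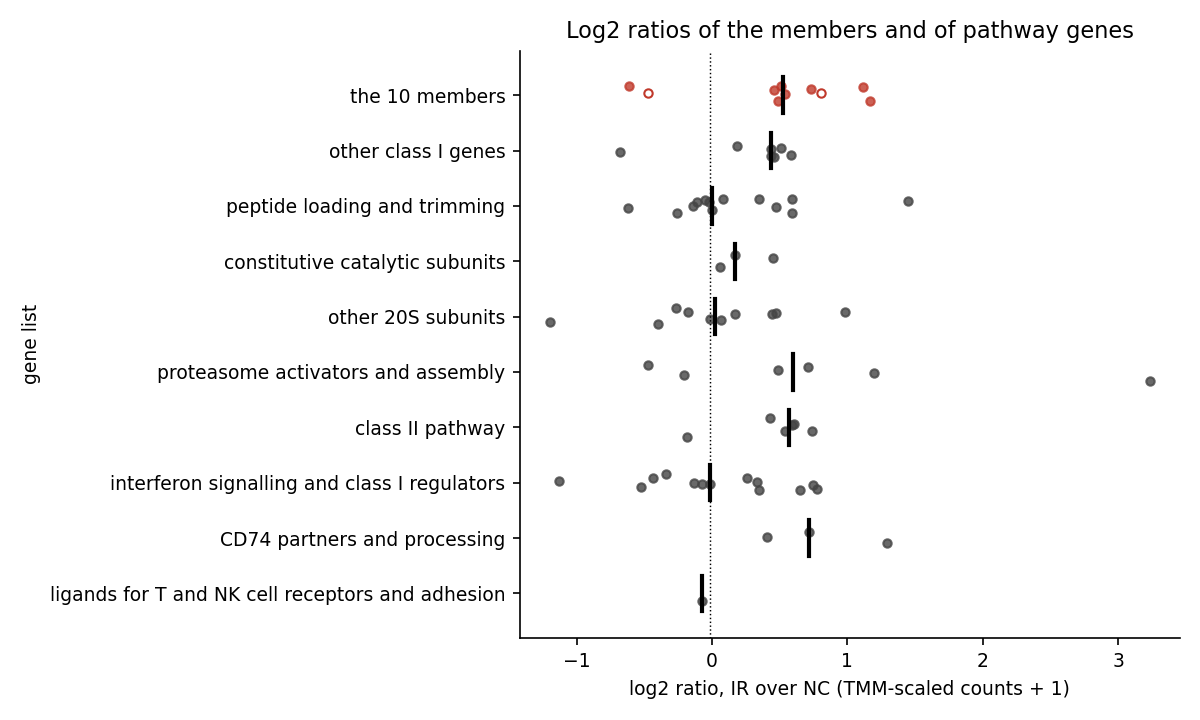
Log2 ratio of IR over NC of each gene that averaged 20 or more counts, by gene list, with vertical bars at list medians and a dotted line at the median of all 5989 genes (-0.02). The 10 genes described are red, open for Psmb9 and Psmb10, which are below the minimum and not in the median of 0.53. The other lists spread over both sides of the line, except Cd47, the single ligand shown, the 3 CD74 partners above it, and the 3 constitutive subunits above it, whose median turns to -0.16 by total counts.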

How the data were processed

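Ribosome footprints of mouse lung fibroblasts were analysed in 2 libraries, IR and NC, grouped by their titles. The authors deposited whole-number counts of mapped reads per gene, per the file headers. Tools listed in the submitters' processing notes, without roles, are HTSeq 0.9.1, TopHat2, Bowtie, cutadapt 1.9.3, DESeq2 and edgeR, with mm10 as the build. The annotation release, the strandedness and the treatment of multi-mapped reads were not given in the sources used here. The 2 deposited columns of log CPM were not used.

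Counts were scaled with TMM factors (edgeR 4.0.16, R 4.3.3). Log2 ratios carry a pseudocount of 1 and folds none. Calls were counted over genes that averaged 20 or more counts. A test with replicates could not be fitted to 1 library per group. List medians are described beside the median of all genes. Within-library ratios were compared as odds ratios with exact conditional 95% intervals (scipy 1.17.1). The interval code was tested on simulated data. A count of 0 allows up to 3 counts, or 3.79 CPM in IR and 3.84 CPM in NC, and all intervals cover counting error only. Levels per coding length, planned at first, were not computed because coding lengths were not used here.

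The genes and lists were chosen with earlier results of these data known. The text names the 10 genes, the 3 constitutive partners and, of each of 9 pathway lists, the 2 highest, the 2 lowest and the most counted gene above the minimum. Genes outside this rule (H2-Q6, H2-Ab1, H2-Eb1, Ciita, Zbtb22, Gm15821, Mif, Psmg1, Psmg2, the cell type markers, Cd274, Raet1e and Ulbp1) were chosen after their values were seen. Promoter sequences are RefSeq's for GRCm38.p6. Other scalings, minimum counts, pseudocounts, intervals and left-out genes were tried. Python 3.11.15, numpy 2.4.6, pandas 2.3.3 and matplotlib 3.10.9 were used.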

Additional observations from a re-analysis of the deposited data

How the results depend on the processing

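Directions and calls depended mainly on the scaling between libraries. DESeq2 (1.42.0) size factors and upper-quartile scaling gave identical folds and are a single check. They lay close to TMM scaling, with 1.39 for B2m against 1.38, and changed no fold of the 10 genes beyond its interval. Pseudocounts of 0.5 and 5 left the median log2 ratio of the genes at 0.53 and 0.52. Total-count scaling left 4 genes higher in place of 7, with Tap1, Tap2 and Cd74 no longer beyond counting error. The share of all genes called under that scaling was not counted. Total-count scaling put the list medians at -0.34 for peptide loading and trimming, -0.16 for constitutive catalytic subunits and 0.38 for CD74 partners. Leaving out genes that overlap another listed gene also left 4 higher, because fewer genes were counted. Read against genes of like count, a setting added after seeing the data, 5 genes were higher and 1 lower.

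The summed immunoproteasome ratio of 0.600 moved to 0.880 without Psmb8 and Psmb5 and to 0.866 against alpha subunits, and neither value left counting error. That sum is not a value of any single pair. None of the 3 pairs left counting error alone, and Psmb10 over Psmb7, at 1.32, ran opposite to the sum. The cause was not tested beyond these settings. No paired analysis was possible because each group has 1 library. The depth of 15 counts in IR and 21 in NC for Psmb9, and of 22 in IR and 12 in NC for Psmb10, limits what can be said of these subunits.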

Other observations

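Ligands that T cells and natural killer cells read beside class I molecules were sparsely counted. Of 7 such genes, Cd47, the signal against engulfment, alone averaged 20 or more counts, with 155 counts in IR against 161 in NC and a fold of 0.951 (0.758 to 1.19). Cd274, which encodes the T cell inhibitory ligand PD-L1, had 9 counts in IR and 0 in NC. Its fold had no upper limit, and the lower end of its interval was 1.95. Raet1e, a ligand of the activating receptor NKG2D, also had 9 and 0. Ulbp1, of the same list, went the other way, with 9 counts in IR against 26 in NC, a fold of 0.342 (0.141 to 0.753). Cd274, Raet1e and Ulbp1 were chosen after their values were seen. Any count above 0 in IR with 0 in NC occurred in 12.6% of all genes. That share includes genes with fewer than 9 counts in IR, so it is not the share with 9 against 0.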
